A study of Mus musculus with 22 samples.

Results

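The 40 genes described here are cell cycle genes, chosen by name for their phase, though with earlier results of these data known. Of them 14 act in DNA replication, 12 are cyclins or cyclin-dependent kinases (Cdks), and 14 act in or mark mitosis. All 40 were found among the 48440 gene IDs measured and all 40 were among the 18929 genes that passed the low-count filter. RNA was measured in mouse tumours, kept fresh frozen, of 3 genotypes. Those of genotype SS18-SSX+/- express the fusion gene of synovial sarcoma. In those of genotype SNF5-/-, called Snf5-null here, Smarcb1 (older name Snf5) was deleted, which encodes a core part of the BAF complexes that remodel chromatin. Tumours with the genotype SS18-SSX+/- and Snf5-/- are called combined.

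The titles gave 6 groups: SS18-SSX with Myf5Cre (3 libraries, tags N381, N428 and N460), SS18-SSX with no Cre stated (3, tags A, B and N2), Snf5-null with TATCre (5, tags N1, N49, N43L, N43R and N51), Snf5-null with Myf5Cre (3, tags N30, N31 and N33), combined with TATCre (4, tags N49, 78774, 78777 and 78780) and combined with Myf5Cre (4, tags N1 to N4). Myf5Cre is the recombinase expressed from the Myf5 gene of muscle progenitors, and TATCre is a recombinase protein that enters cells from outside. The strain labels begin with C57BL/ and carry a number that differs in every library, so no strain was taken from them, and no age or tumour site was given. The labels do not say that each library came from a separate animal, and N43L and N43R share a tag, so a p-value here reflects only how these samples vary, and some of that may be technical. All Snf5-null and combined libraries carry the number series 13879 in their descriptions, while the SS18-SSX libraries carry 11264 or 11361, so a difference between SS18-SSX tumours and the others cannot be told apart from a difference between number series. In these bulk samples fewer cycling cells and less RNA of a cell cycle gene per cell cannot be told apart.

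Cells enter the cycle when D-type cyclins with Cdk4 or Cdk6, and then E-type cyclins with Cdk2, inactivate the retinoblastoma protein and release E2F factors, which switch on the genes of DNA replication. Later in the cycle the MuvB complex with B-Myb (the product of Mybl2) and Foxm1 switches on the genes of mitosis, among them the B-type cyclins, the Aurora and Polo kinases and the motor proteins of the spindle. CDK inhibitors of the Cdkn1 and Cdkn2 families hold the kinases back.

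The promoters of the replication and the mitosis genes carry different short motifs, and 5 are shown because they hold the motifs of each class beside genes with called differences below: Mcm5, which encodes a subunit of the replicative helicase, and Cdk2 for the E2F motif, Cdk1 for both kinds, and Ccnb2 (cyclin B2) and Kif11 (a spindle motor) for the mitotic kind. The sequences are from RefSeq (build GRCm38.p6, 5′ to 3′ in the gene's direction), with the 250 bases before the start site and the 30 bases from it onward. Capitals mark every match on either strand to the E2F motif (TTTCCCGC, TTTGGCGC, TTTGCCGC or TTTCGCGC), the cell cycle homology region or CHR (TTTGAA or TTTAAA), and CCAAT. A match on the other strand reads as its reverse complement, and the 2 E2F matches in Mcm5 overlap each other. Mcm5 also holds a CHR and CCAAT matches, so like Cdk1 it carries both kinds, and Cdk2 also holds a CCAAT.
Mcm5, chr8:75109259-75109538, plus strand: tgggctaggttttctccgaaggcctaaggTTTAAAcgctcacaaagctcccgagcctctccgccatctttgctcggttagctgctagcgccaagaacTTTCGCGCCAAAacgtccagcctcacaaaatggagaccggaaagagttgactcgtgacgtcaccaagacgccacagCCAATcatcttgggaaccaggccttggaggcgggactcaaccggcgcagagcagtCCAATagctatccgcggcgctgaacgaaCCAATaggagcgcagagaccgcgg
Cdk2, chr10:128705022-128705301, minus strand: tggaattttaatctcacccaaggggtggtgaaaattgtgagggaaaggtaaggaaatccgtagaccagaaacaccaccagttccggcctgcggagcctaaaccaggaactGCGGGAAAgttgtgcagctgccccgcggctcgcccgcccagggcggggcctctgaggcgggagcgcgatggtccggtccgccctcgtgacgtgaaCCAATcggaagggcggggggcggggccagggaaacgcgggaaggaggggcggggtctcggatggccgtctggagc
Cdk1, chr10:69352883-69353162, minus strand: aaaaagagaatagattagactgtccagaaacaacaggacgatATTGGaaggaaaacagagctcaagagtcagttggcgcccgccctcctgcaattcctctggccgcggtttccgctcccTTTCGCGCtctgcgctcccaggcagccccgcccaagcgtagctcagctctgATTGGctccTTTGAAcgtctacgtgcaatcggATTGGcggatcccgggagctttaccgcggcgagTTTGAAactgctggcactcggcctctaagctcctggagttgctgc
Ccnb2, chr9:70421525-70421804, minus strand: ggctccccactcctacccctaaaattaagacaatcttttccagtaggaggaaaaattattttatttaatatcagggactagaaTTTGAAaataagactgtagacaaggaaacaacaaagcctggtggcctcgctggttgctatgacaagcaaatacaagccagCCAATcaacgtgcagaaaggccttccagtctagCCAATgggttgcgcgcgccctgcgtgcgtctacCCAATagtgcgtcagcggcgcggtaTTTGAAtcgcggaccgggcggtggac
Kif11, chr19:37376132-37376411, plus strand: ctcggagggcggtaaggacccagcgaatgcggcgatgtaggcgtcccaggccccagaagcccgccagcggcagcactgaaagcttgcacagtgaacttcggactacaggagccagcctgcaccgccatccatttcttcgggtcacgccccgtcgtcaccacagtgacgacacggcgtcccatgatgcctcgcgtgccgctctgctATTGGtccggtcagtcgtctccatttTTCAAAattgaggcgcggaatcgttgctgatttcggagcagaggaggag

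Windows of 300 bases, reaching to 50 bases after the start, were found for 32 of the 40 genes. An E2F motif lay in 7 of 14 windows of the replication genes (50%), in 2 of 9 windows of the cyclins and Cdks (22.2%) and in 0 of 12 windows of the mitosis genes, against 2.26% of all 32851 windows. A CHR together with a CCAAT lay in 9 of 12 windows of the mitosis genes (75%), in 4 of 14 of the replication genes (28.6%) and in 3 of 9 of the cyclins and Cdks (33.3%), against 10.7% of all windows. Further genes of the same pathways, which are not among the 40, held the E2F motif in 27.6% of 29 replication windows and 3.03% of 33 mitosis windows, and the CHR with CCAAT in 13.8% and 54.5% of them. A match describes the letters in the window and shows no binding, and a window without one says only that these letters are not in it.

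Smarcb1, the deleted gene, was lower in both genotypes labelled with its deletion than in SS18-SSX tumours. Its level in CPM (a gene's count scaled to a library of 1000000 counts, with TMM-adjusted library sizes) ran from 47.1 to 111 in SS18-SSX tumours, from 10.6 to 26.9 in Snf5-null tumours and from 0.909 to 3.66 in combined tumours, with no overlap between genotypes. The gap between Snf5-null and combined tumours (medians of 14.6 and 2.56 CPM) is not given by the labels, which state the deletion for both. Cell type markers differed between them too, as given below, and their part in the gap was not tested. Total counts ran from 8642648 to 25177722 per library. A few libraries stood apart over the whole gene set. N381 was the lowest of all 22 libraries for 31 of the 40 genes, library A was the lowest of its group for 38, and the combined TATCre library N49 was the lowest of the combined libraries for 29. At the other end, the combined libraries 78777 and N3 (Myf5Cre) were the highest of all 22 for 15 and 13 genes. N381 and A also had the highest summed level of 17 lymphocyte markers among SS18-SSX libraries (997 and 599 CPM, against 9.55 to 23.6 in the other 4), and the part of this in their low cell cycle levels was not tested. Counts for the genotype comparisons are given below with and without these 3 low libraries. As they were picked for low levels of the 40 genes, leaving them out raises the levels of their groups by selection.

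**Figure D1:**
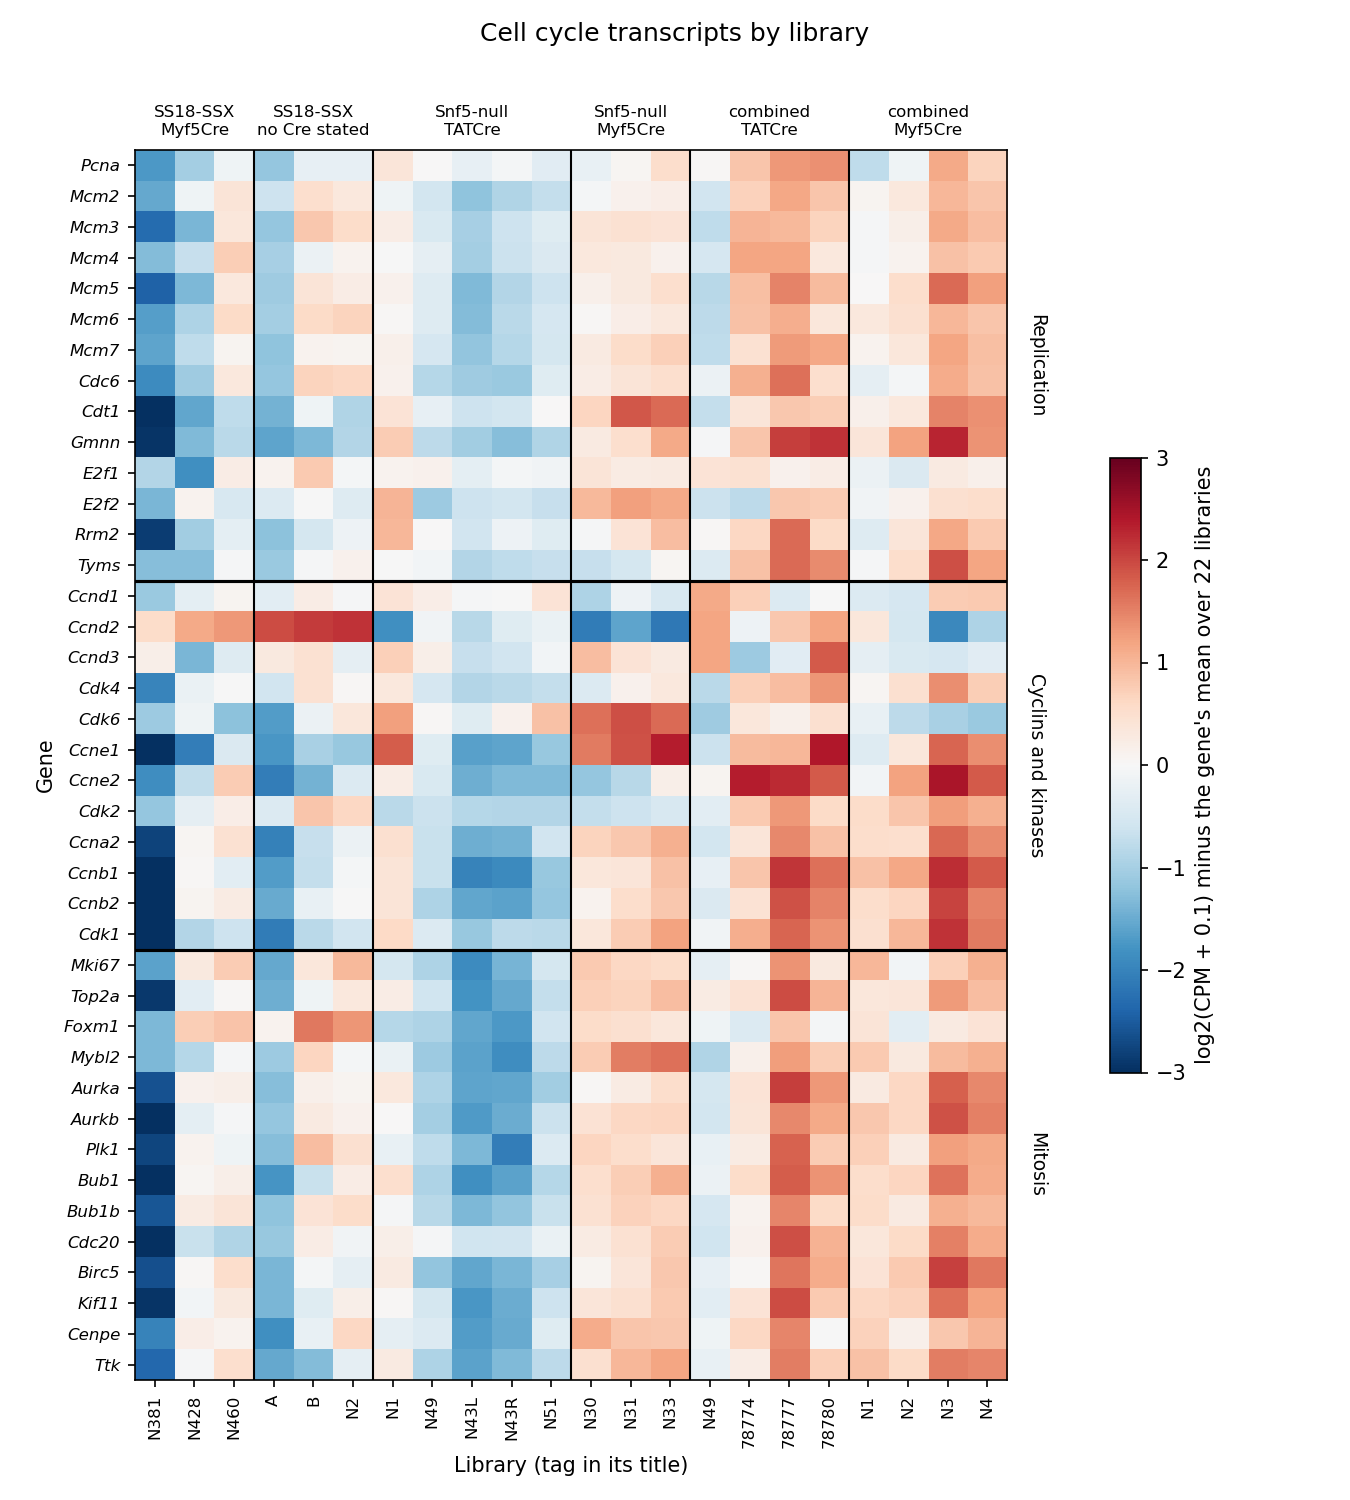
Each row is 1 of the 40 genes, ordered by class, and each column 1 of the 22 libraries, ordered by group; colour gives the log2(CPM + 0.1) minus the gene's mean over the 22 libraries, with the scale clipped at 3 on either side. N381 and A are low through all 3 classes, and most genes of the combined libraries other than N49 are above their mean.

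Levels of the classes varied within every group. As a summary for each library, the median over a class was taken of each gene's log2 CPM minus its mean over the 22 libraries. For the mitosis genes this level was 0.02, -0.92, -1.60, -1.50 and -0.66 in the Snf5-null TATCre libraries N1, N49, N43L, N43R and N51, and 0.49, 0.63 and 0.77 in the Snf5-null Myf5Cre libraries N30, N31 and N33, so the 2 Cre labels did not overlap among Snf5-null tumours. In the combined tumours it was -0.25, 0.24, 1.56 and 0.78 with TATCre and 0.59, 0.47, 1.40 and 1.11 with Myf5Cre, with overlap between the labels. In the SS18-SSX tumours it was -2.62, 0.04 and 0.17 with Myf5Cre and -1.32, 0.19 and 0.20 with no Cre stated. The level of the replication genes had medians of -0.51 in SS18-SSX, -0.12 in Snf5-null and 0.80 in combined tumours, and that of the mitosis genes 0.11, -0.32 and 0.68. The replication level minus the mitosis level was above 0 in all 5 Snf5-null TATCre libraries (0.13 to 0.81) and below 0 in all 3 Snf5-null Myf5Cre libraries (-0.28 to -0.25). These levels are descriptions of chosen genes and carry no test.

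The comparison of combined with Snf5-null tumours asks what the fusion adds where Smarcb1 is already lost. Of the 40 genes 16 rose (40%, against 29.1% of all genes tested) and 1 fell (2.5%, against 20.5%) in edgeR's quasi-likelihood test at an adjusted p under 0.05, and 37 of 40 had a log2 fold change above 0. Their median log2 fold change was 0.82, beside 0.23 for all genes tested. Under RLE scaling (the size factors of DESeq2) these medians were 0.69 and 0.12, and 13 rose and 1 fell. The cyclins and Cdks held the highest share, with 7 of 12 higher (58.3%) and 1 lower. Of the replication genes 4 of 14 were higher (28.6%) and of the mitosis genes 5 of 14 (35.7%), both near the share of all genes. The count of 16 depended on single libraries: it was 4 without N30, 5 without N31, 9 without N33, 7 and 10 without the combined Myf5Cre N4 and N3, 26 without the Snf5-null N1 and 27 without the combined N49. Without N381, A and the combined N49 together 29 rose and 1 fell. These libraries were picked for low levels of the 40 genes themselves, so leaving out the combined N49 was bound to raise the combined level. N381 and A are not part of this comparison and enter only through the shared fit.

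Cdk2, the kinase partner of the E-type cyclins (chr10:128697939-128705031, minus strand, GRCm38), was the only 1 of the 40 whose libraries did not overlap between these genotypes, which 2.97% of all genes tested did in this direction. Its level was 27.4, 30.9, 26.4, 26.2 and 26 CPM in the Snf5-null TATCre libraries and 29.4, 31.2 and 34.1 CPM in the Snf5-null Myf5Cre libraries. In the combined tumours it was 38.8, 82.6, 118 and 71.4 CPM with TATCre and 70.5, 86, 114 and 101 CPM with Myf5Cre. The lowest combined library was again N49, and the Snf5-null libraries lay within a narrow band. The log2 fold change was 1.53 (SE 0.23, adjusted p = 4.31e-05). Cdk2 lies opposite Pmel on the other strand. The kit marks strand, but the sources used here do not give the strand setting of the counting, so reads of the 2 genes may not have been told apart. The same holds, among others, for Cdk4 and Tspan31, Ccne2 and Ints8, Ccnd1 and LTO1, Ccnd3 and Bysl, and Ccna2 and Exosc9. It also holds for Cdc20 and Elovl1 and for Mcm7 with Ap4m1 and Cops6.

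Ccne2 (cyclin E2, chr4:11191351-11204779, plus strand) had the largest log2 fold change of the 40, 2.34 (SE 0.47, adjusted p = 0.000604). Its level ran from 11.8 through a median of 16.5 to 38 CPM in Snf5-null tumours and from 30.9 through 117 to 178 CPM in combined tumours, so that the ranges overlapped between 30.9 and 38 CPM. Ccne1 (cyclin E1), its paralog, did not pass the test (0.11, SE 0.55, adjusted p = 0.881), with medians of 42 CPM in Snf5-null and 44.6 CPM in combined tumours and ranges of 7.21 to 116 and 14.3 to 120. Its value had opposite signs by Cre label, 1.19 with TATCre (SE 0.73, adjusted p = 0.21) and -0.97 with Myf5Cre (SE 0.82, adjusted p = 0.375), and neither these nor their difference (-2.16, SE 1.10, adjusted p = 0.308) passed. Per kilobase of exon, the ratio of Ccne2 to Ccne1 within a library had a median of 0.662 in Snf5-null tumours (0.166 to 1.32) and of 1.82 in combined tumours (0.74 to 2.92). Ccna2 (cyclin A2), which also binds Cdk2, did not pass (0.76, SE 0.42, adjusted p = 0.135).

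Among the D-type cyclins, which act first in the cycle, Ccnd2 (cyclin D2, chr6:127125162-127152193, minus strand) rose. Its level was 253, 848, 509, 704 and 794 CPM in Snf5-null TATCre libraries and 210, 303 and 204 CPM in Snf5-null Myf5Cre libraries, against 2058, 808, 1589 and 2042 CPM in combined TATCre and 1144, 627, 236 and 475 CPM in combined Myf5Cre libraries. The log2 fold change was 1.38 (SE 0.31, adjusted p = 0.0016). Values overlapped across Cre labels: the combined Myf5Cre library N3, the highest of all 22 for 13 of the 40 genes, was the lowest combined library for Ccnd2. Ccnd1 did not pass the test (0.53, SE 0.26, adjusted p = 0.0958), at medians of 385 and 517 CPM in Snf5-null and combined tumours. Ccnd3 had a log2 fold change of -0.06 (SE 0.34, adjusted p = 0.89).

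The kinases that pair with D-type cyclins went in opposite directions. Cdk4 ran from 148 through a median of 199 to 340 CPM in Snf5-null and from 156 through 450 to 712 CPM in combined tumours, and rose (0.94, SE 0.32, adjusted p = 0.0222). That call was lost without any 1 of the Snf5-null Myf5Cre libraries or the combined Myf5Cre N3 or N4 (adjusted p = 0.0546 to 0.13), and with Myf5Cre alone (0.70, adjusted p = 0.274). Cdk6 (chr5:3341485-3531008, plus strand) was at 185, 80.3, 61.1, 85.1 and 143 CPM in Snf5-null TATCre and 246, 299 and 253 CPM in Snf5-null Myf5Cre libraries. It stood at 37.5, 99.2, 86.7 and 110 CPM in combined TATCre and 67, 45.1, 39.7 and 35.9 CPM in combined Myf5Cre libraries. The Snf5-null Myf5Cre libraries were the 3 highest of all 22, and no combined library reached them. Cdk6 was the 1 member that fell (-1.46, SE 0.30, adjusted p = 0.000793), and with TATCre alone it did not pass (-0.41, adjusted p = 0.438).

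Cell type markers moved with this comparison. The summed level of 16 macrophage markers had a median of 6041 CPM in Snf5-null tumours (2541 to 10098) against 431 CPM in combined tumours (118 to 1109), and 15 of the 16 fell. For 17 lymphocyte markers the medians were 376 CPM (150 to 583) and 27.8 CPM (6.3 to 89.9), and 14 of the 17 fell. For 14 skeletal muscle markers they were 3938 CPM (131 to 20866) and 401 CPM (173 to 1998), with 10 of the 14 lower. For 12 fibroblast and matrix markers they were 12257 CPM (6058 to 19054) and 4136 CPM (740 to 10150), with 2 higher and 8 lower. The 6 red cell markers all rose, from a median sum of 34 CPM (7.17 to 229) to 172 CPM (50.8 to 1285), and of 10 endothelial markers 2 rose and 3 fell. No marker of these lists was at 0 in every library of a genotype, but 5 lymphocyte markers were at 0 in all combined Myf5Cre libraries, and the part of these cells in the levels of Cdk6 or any other member was not tested.

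**Figure D2:**
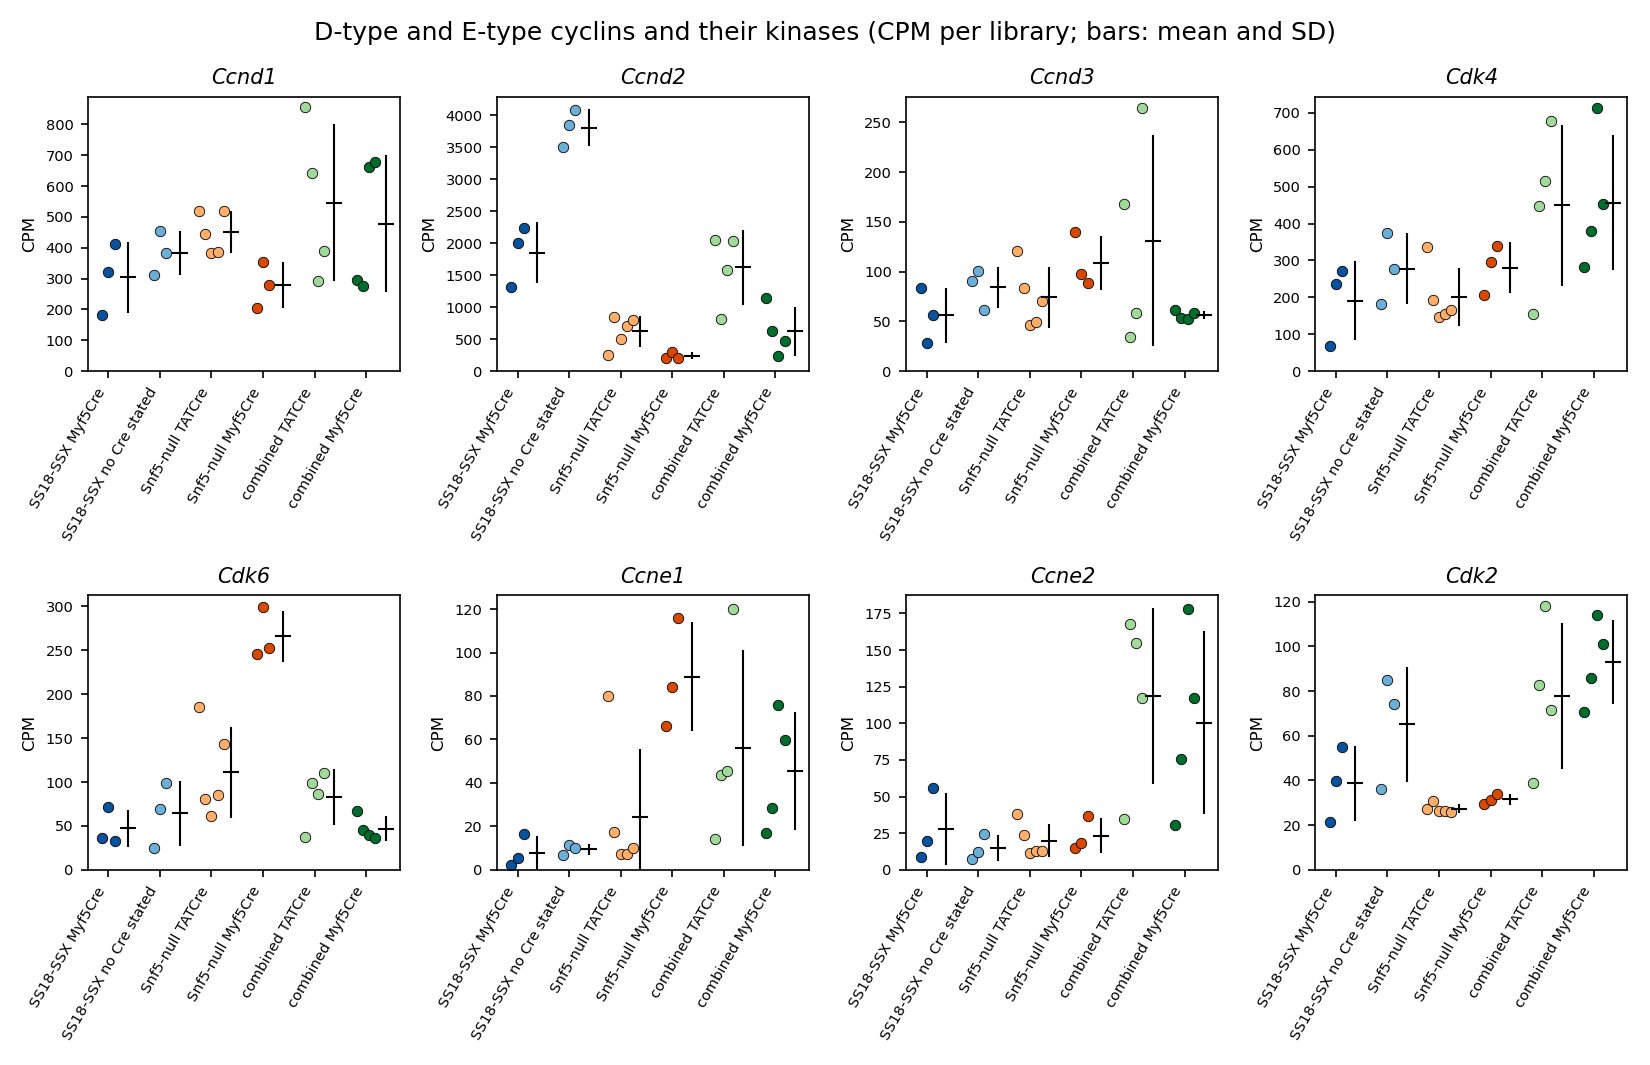
Level in CPM (linear axis from 0) of D-type and E-type cyclins and their kinases in every library, 1 panel per gene and 1 column per group; points are libraries, and the bars are the mean and SD, cut at 0 where they would reach below it. Ccnd2 is highest in the SS18-SSX groups, Cdk6 in Snf5-null Myf5Cre, and Ccne2 and Cdk2 in the combined groups.

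Of the replication genes, Tyms (thymidylate synthase, which makes a DNA precursor) rose most in combined over Snf5-null tumours. It ran from 21.2 through a median of 25.5 to 40.4 CPM in Snf5-null and from 29.4 through 80.3 to 150 CPM in combined tumours (log2 fold change 1.49, SE 0.33, adjusted p = 0.00145). Gmnn (geminin, which blocks the loading factor Cdt1 after replication starts) had medians of 16.8 and 46 CPM and rose by 1.38 (SE 0.40, adjusted p = 0.0092). Mcm5 had medians of 75.3 and 154 CPM and rose by 1.03 (SE 0.39, adjusted p = 0.034), and Mcm2 was the fourth called. The other Mcm genes were close to the threshold or short of it, with log2 fold changes of 0.61 (Mcm3) to 0.79 (Mcm6). Cdt1, E2f1 and E2f2 were at 0.01, 0.01 and -0.23.

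Among the late cyclins and mitosis genes, Ccnb1 (cyclin B1, the activator of Cdk1) ran from 4.35 through a median of 16.6 to 32.3 CPM in Snf5-null and from 14.9 through 47.5 to 82.3 CPM in combined tumours. Its log2 fold change was 1.61 (SE 0.49, adjusted p = 0.0119), but 23.4% of its 50-base stretches also occur in other genes, so this value is uncertain. Ccnb2 and Cdk1 rose too. Aurka, the Aurora kinase of the spindle poles, had medians of 20.9 and 53.9 CPM (1.38, SE 0.44, adjusted p = 0.0139). Birc5 and Aurkb, which both belong to the chromosomal passenger complex, rose by 1.27 (SE 0.42, adjusted p = 0.0178) and 1.19 (SE 0.39, adjusted p = 0.0179). Plk1 and Kif11 completed the 5 called. Mki67, the widely used proliferation marker, ran from 90.3 through 233 to 578 CPM in Snf5-null and from 278 through 483 to 851 CPM in combined tumours and did not pass (0.77, SE 0.37, adjusted p = 0.0874).

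Taken within each Cre label, the comparison gave different counts. With TATCre, 28 of 40 genes rose in the combined tumours and 0 fell (against 18.1% and 13.9% of all genes), with a median log2 fold change of 1.37. These were 8 of 14 replication genes, 7 of 12 cyclins and Cdks and 13 of 14 mitosis genes. This count takes N43L and N43R, which share a tag, as 2 samples. They were the lowest of the Snf5-null TATCre group for 30 and 6 of the 40 genes. The comparison with TATCre alone was not refitted with them summed or with a library left out. With Myf5Cre, 4 of 40 rose and 1 fell (against 15.7% and 15.3% of all genes), with a median of 0.27, and 0 of 14 mitosis genes were called. The 4 were Tyms, Ccnd2, Ccne2 and Cdk2, which also rose with TATCre, and the gene that fell was Cdk6. Cdk2 was 1.51 (SE 0.30, adjusted p = 0.00141) with TATCre and 1.56 (SE 0.35, adjusted p = 0.0028) with Myf5Cre. Mki67 was 1.45 (SE 0.48, adjusted p = 0.0277) with TATCre and 0.08 (SE 0.54, adjusted p = 0.922) with Myf5Cre.

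**Figure D3:**
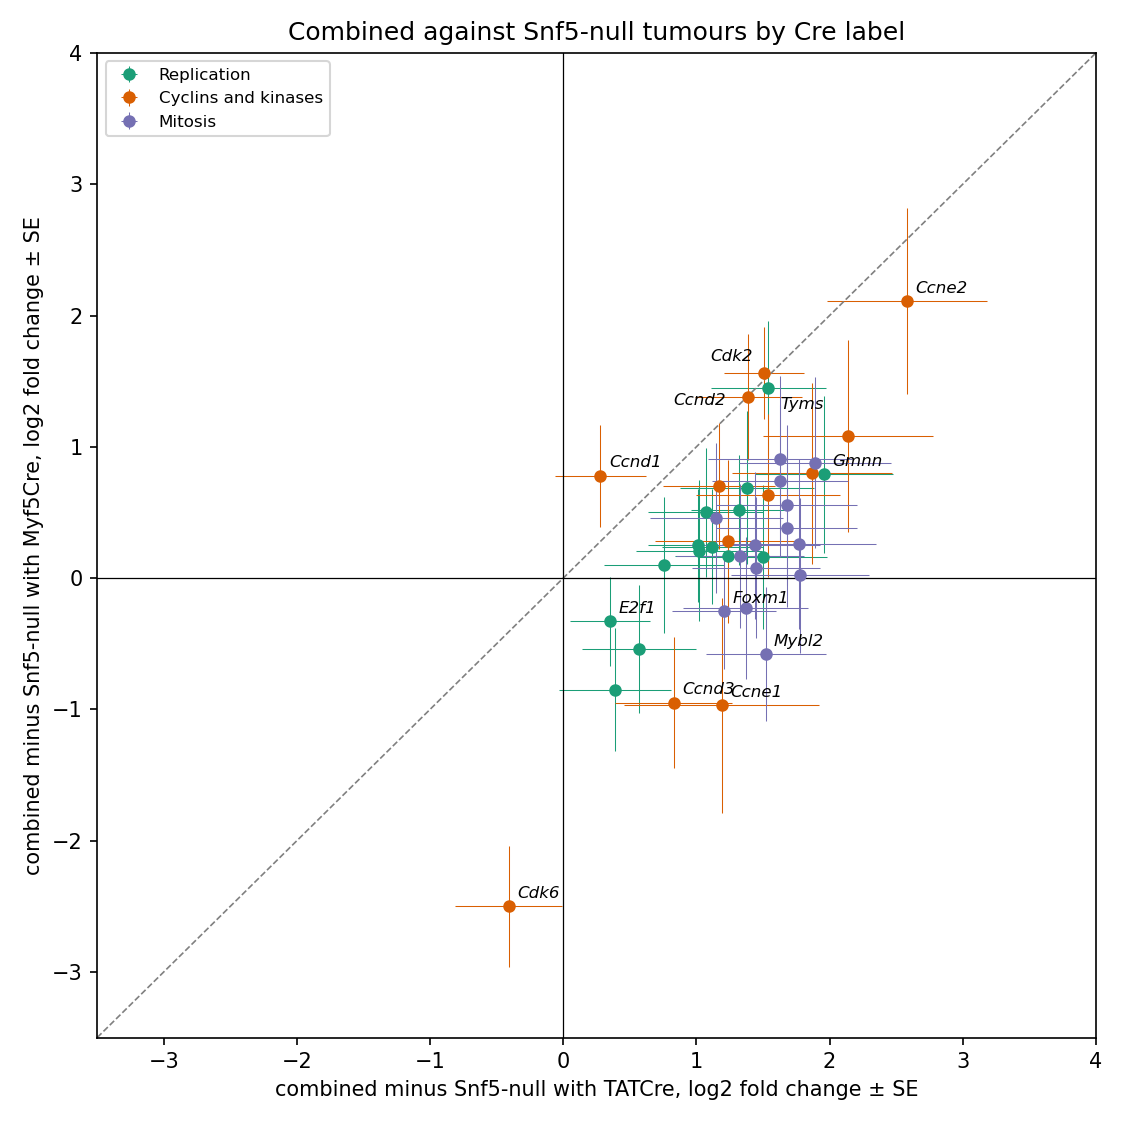
Log2 fold change of combined over Snf5-null tumours with TATCre (horizontal axis) and with Myf5Cre (vertical axis) for the 40 genes, each point 1 gene coloured by class. The 14 mitosis genes lie between 1.15 and 1.89 on the TATCre axis and between -0.58 and 0.91 on the Myf5Cre axis, while Ccnd2, Ccne2, Cdk2 and Tyms lie near the line of equal change and Cdk6 lies lowest.

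The difference between Cre labels was itself tested. The interaction, the Cre difference in combined tumours minus that in Snf5-null tumours, called 0 of 40 genes (against 1.32% of all genes higher and 1.1% lower). At an unadjusted p under 0.05 in edgeR 0 were higher and 6 lower, against 1708 and 1743 of the 18929 genes tested. The median over the 40 was -1.04, beside -0.04 for all genes tested. Cdk6 (-2.09, SE 0.60, adjusted p = 0.065) and Mybl2 (-2.09, SE 0.68, adjusted p = 0.104) had the lowest p. Both passed with DESeq2 (adjusted p = 0.016 and 0.0259), which called 2 genes in all, and without the Snf5-null TATCre library N1 (0.0234 and 0.0424), where 4 were called. Without the combined TATCre N49, 1 was called, which was Cdk6 (-2.35, adjusted p = 0.0381).

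Within Snf5-null tumours, Myf5Cre was compared with TATCre. Of the 40 genes 3 rose with Myf5Cre (7.5%, against 1.78% of all genes) and 0 fell (against 3.19%), with a median log2 fold change of 1.15 beside -0.05 for all genes tested. Mybl2 was at 7.03, 3.74, 2.59, 2.13 and 4.64 CPM with TATCre and 13.8, 23.6 and 25.7 CPM with Myf5Cre (2.39, SE 0.48, adjusted p = 0.00987), with 19.3% of its 50-base stretches shared with other genes. Foxm1, the other late activator named above, was at 16.8, 15.8, 10.2, 9.07 and 20.3 CPM against 44.5, 42.2 and 38.4 CPM (1.53, SE 0.41, adjusted p = 0.0382). The origin loading factor Cdt1 was at 40.5, 25.4, 19.7, 20.6 and 30.5 CPM against 47.6, 111 and 98.6 CPM (1.65, SE 0.46, adjusted p = 0.045). All 3 had every Myf5Cre library above every TATCre library, as did 23 of the 40 genes against 8.38% of all genes, and 12 of these 23 were mitosis genes. Only Ccnd1 was lower with no overlap (8.63% of all genes), and it did not pass the test (-0.69, SE 0.38, adjusted p = 0.323).

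The count of 3 rested on single libraries. Without the Snf5-null TATCre library N1, which was the highest of its group for 34 of the 40 genes, 14 rose and 1 fell, and Mki67 passed (1.79, adjusted p = 0.0431). Without N49, N43L or N43R 1 rose, and without N31 or N33 0 rose. With N43L and N43R summed as 1 sample 1 rose. Markers of other cells varied with the Cre label too. The skeletal muscle sum had a median of 5493 CPM with TATCre (1781 to 20866) and 323 CPM with Myf5Cre (131 to 6632), with 0 of 14 called, and the fibroblast and matrix sum 15633 CPM (6589 to 19054) and 7840 CPM (6058 to 13020), with 2 of 12 lower. The macrophage sum had a median of 6926 CPM with TATCre (2541 to 10098) and 5156 CPM with Myf5Cre (5107 to 9312), and the lymphocyte sum 370 CPM (150 to 510) and 382 CPM (306 to 583). All 4 sums overlapped between the labels, and their part in the result was not tested.

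Within combined tumours the same Cre comparison called 0 of 40 genes (against 0.571% of all genes higher and 1.25% lower). At an unadjusted p under 0.05 in edgeR 0 were higher and 2 lower, against 978 and 2280 of the 18929 genes tested. In DESeq2, at an adjusted p under 0.05, 0 were higher and 1 lower (against 2.02% and 5.72% of all genes). The median log2 fold change in edgeR was 0.03. The lowest p belonged to Ccnd2 (-1.39, SE 0.43, adjusted p = 0.0929) and Ccnd3 (-1.22, SE 0.48, adjusted p = 0.181). The 2 SS18-SSX groups, which differ in number series and in whether a Cre is stated, also had 0 of 40 called (against 1.25% and 0.866% of all genes). At an unadjusted p under 0.05 in edgeR 0 were higher and 2 lower, against 1841 and 1281 of the 18929 genes tested. DESeq2 called 0 at an adjusted p under 0.05 (against 4.08% of all genes higher and 3.16% lower). The lowest p there were those of E2f1 (-0.92, SE 0.37, adjusted p = 0.195) and Ccnd2 (-1.04, SE 0.49, adjusted p = 0.3). Ccnd2 was at 1320, 1999 and 2237 CPM with Myf5Cre and 3500, 3849 and 4076 CPM with no Cre stated, the only member with no overlap in this comparison (7.58% of all genes lower in this way).

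The comparison of combined with SS18-SSX tumours asks what loss of Smarcb1 adds where the fusion is present, and it crosses the number series. Of the 40 genes 25 rose (62.5%, against 23.1% of all genes) and 1 fell (2.5%, against 21.9%), with a median log2 fold change of 1.21 beside -0.09 for all genes tested. Scaling by library size alone moved these medians to 0.99 and -0.30 and the counts to 21 and 2. The higher genes were 8 of 14 replication genes, 8 of 12 cyclins and Cdks and 9 of 14 mitosis genes. Without N381, A and the combined N49 the counts were 23 higher and 2 lower.

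Gmnn and Cdk1 were the members with no overlap here (4.1% of all genes higher in this way). Gmnn (chr13:24751845-24761923, minus strand) was at 2.38, 7.48 and 10.7 CPM in SS18-SSX Myf5Cre libraries and 6.23, 7.42 and 10.3 CPM in those with no Cre stated, and in combined tumours it ran from 18.5 through a median of 46 to 92.7 CPM. Its log2 fold change of 2.85 (SE 0.46, adjusted p = 0.000151) was the largest of the 40 in any genotype comparison. Cdk1 (chr10:69335146-69352938, minus strand), the kinase that drives entry into mitosis, ran from 4.66 through 44.2 to 53.5 CPM in SS18-SSX and from 73.2 through 186 to 357 CPM in combined tumours (2.44, SE 0.47, adjusted p = 0.000569). Cdt1, which geminin inhibits, rose by 1.80 (SE 0.37, adjusted p = 0.000846), and Tyms by 1.59 (SE 0.36, adjusted p = 0.00187).

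Both E-type cyclins rose against SS18-SSX tumours. Ccne1 ran from 2.08 through 8.44 to 16.6 CPM in SS18-SSX tumours and rose by 2.53 (SE 0.64, adjusted p = 0.00407). Ccne2 ran from 7.65 through 15.9 to 55.7 CPM and rose by 2.42 (SE 0.51, adjusted p = 0.00108). Cdk2 (median 47.4 CPM in SS18-SSX) rose by 0.76 (SE 0.24, adjusted p = 0.0161), and lost its call under scaling by library size alone (0.54, adjusted p = 0.0679) or with no low-count filter (0.61, adjusted p = 0.0646). Cdk4 rose by 0.98 (SE 0.35, adjusted p = 0.028), which was lost under both (0.75 and 0.82) and without N381, A, N2 or the combined Myf5Cre N3 (adjusted p = 0.0532 to 0.0751). Cdk6 (0.18, SE 0.32, adjusted p = 0.656), Ccnd1 (0.58, SE 0.27, adjusted p = 0.0907) and Ccnd3 (0.32, SE 0.36, adjusted p = 0.484) did not pass.

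Ccnd2 was the member that fell. It ran from 1320 through a median of 2869 to 4076 CPM in SS18-SSX and from 236 through 976 to 2058 CPM in combined tumours (-1.40, SE 0.32, adjusted p = 0.002). Per kilobase of exon, the level of Ccnd2 over that of Ccnd1 within a library had a median of 3.94 in SS18-SSX (2.73 to 5.62), 1.17 in combined (0.179 to 2.71) and 0.588 in Snf5-null tumours (0.244 to 0.951). In every SS18-SSX library Ccnd2 was thus the more abundant of the pair on this scale, and in every Snf5-null library it was the less abundant. The ratio of Cdk6 to Cdk4 was below 1 in all 22 libraries, with medians of 0.0571, 0.0384 and 0.15 in SS18-SSX, combined and Snf5-null tumours.

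Among mitosis genes, Cdc20 (the activator of the anaphase-promoting complex) ran from 4.71 through 35.7 to 72.5 CPM in SS18-SSX and from 41.1 through 110 to 238 CPM in combined tumours (1.71, SE 0.42, adjusted p = 0.00335). Of its 50-base stretches 10.4% also occur in other genes, and it lies opposite Elovl1, so this value is uncertain. The spindle checkpoint kinases Bub1 (1.52, SE 0.48, adjusted p = 0.0159) and Ttk (1.52, SE 0.41, adjusted p = 0.00625) followed. Foxm1 (-0.57, SE 0.31, adjusted p = 0.135) and Mki67 (0.44, SE 0.39, adjusted p = 0.363) did not pass. Mki67 had a median of 415 CPM in SS18-SSX tumours (110 to 653), beside 483 CPM in combined tumours. Without N381, Foxm1 fell by 0.80 on the log2 scale (adjusted p = 0.0186). Of the 17 lymphocyte markers 10 fell in this comparison, although the summed level had medians of 23.2 CPM in SS18-SSX and 27.8 CPM in combined tumours. The excess was in N381 and A (997 and 599 CPM), and its part in the result was not tested. Also lower were 1 of 16 macrophage, 1 of 14 skeletal muscle, 3 of 10 endothelial and 3 of 12 fibroblast and matrix markers. Of 6 red cell markers 2 rose. Of all genes 23.1% were higher and 21.9% lower, and the part of these cells was not tested either.

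Snf5-null set against SS18-SSX tumours gave 9 calls among the 40 genes. Of them 6 were higher in Snf5-null tumours (15%, against 22.3% of all genes) and 3 lower (7.5%, against 25.9%), both under the share of all genes. The median log2 fold change was 0.27 beside -0.06, with 32 of 40 genes above 0. It was 0.04 beside -0.30 with library size alone, 0.99 beside -0.16 with Myf5Cre alone (9 higher, 1 lower, 36 above 0) and 0.70 without N460. Without N381, A and the combined N49 it was -0.03 (6 higher, 3 lower, 18 above 0), so it moved with the libraries and the Cre label used. The combined N49 is not part of this comparison and enters only through the shared fit. The higher genes were Cdt1, Gmnn, Rrm2, Cdk6, Ccne1 and Cdk1, and the lower ones Ccnd2, Cdk2 and Foxm1. Without N460 13 rose and 1 fell, and without N428 or B 1 fell. All comparisons between genotypes share libraries, so their values are not independent of each other.

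Ccnd2 had the largest difference, with every Snf5-null library (204 to 848 CPM) below every SS18-SSX library, which 10.1% of all genes did in this direction, and a log2 fold change of -2.78 (SE 0.34, adjusted p = 6.84e-06). Ccne1 rose by 2.42 (SE 0.64, adjusted p = 0.00474) while Ccne2 did not pass (0.08, SE 0.48, adjusted p = 0.908). Cdk6 ran from 24.6 through 53.1 to 98.7 CPM in SS18-SSX and from 61.1 through 164 to 299 CPM in Snf5-null tumours (1.64, SE 0.34, adjusted p = 0.000646). Here too macrophage markers moved, with 15 of 16 higher in Snf5-null tumours (medians of 416 and 6041 CPM). Of 17 lymphocyte markers 6 were higher, of 10 endothelial markers 4 were lower, and of 12 fibroblast and matrix markers 3 were higher and 2 lower. Of all genes 22.3% were higher and 25.9% lower. The part of these cells in the level of Cdk6 was not tested. Cdk2 fell (-0.77, SE 0.24, adjusted p = 0.0131), which was lost without any of 7 single libraries or with Myf5Cre alone (-0.29, adjusted p = 0.544).

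In the replication class Cdt1 rose by 1.79 (SE 0.37, adjusted p = 0.000703), Gmnn by 1.47 (SE 0.44, adjusted p = 0.0104) and Rrm2, the regulated subunit of ribonucleotide reductase, by 1.12 (SE 0.38, adjusted p = 0.0218). Cdt1 had medians of 13.8 and 35.5 CPM in SS18-SSX and Snf5-null tumours. Of the mitosis genes 0 of 14 rose (against 22.3% of all genes). Foxm1 fell (-1.05, SE 0.31, adjusted p = 0.00998), with medians of 52.5 CPM in SS18-SSX and 18.5 CPM in Snf5-null tumours, but with Myf5Cre alone it was at 0.10 (adjusted p = 0.889), and the call was lost without N428, N460 or B (-0.80 to -0.76). Cdc20 (0.90, SE 0.41, adjusted p = 0.0783), Ttk (0.68, SE 0.41, adjusted p = 0.175) and Mki67 (-0.33, SE 0.39, adjusted p = 0.503) did not pass, and neither did Cdk4, Ccnd1 or Ccnd3 (0.04 to 0.38).

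**Figure D4:**
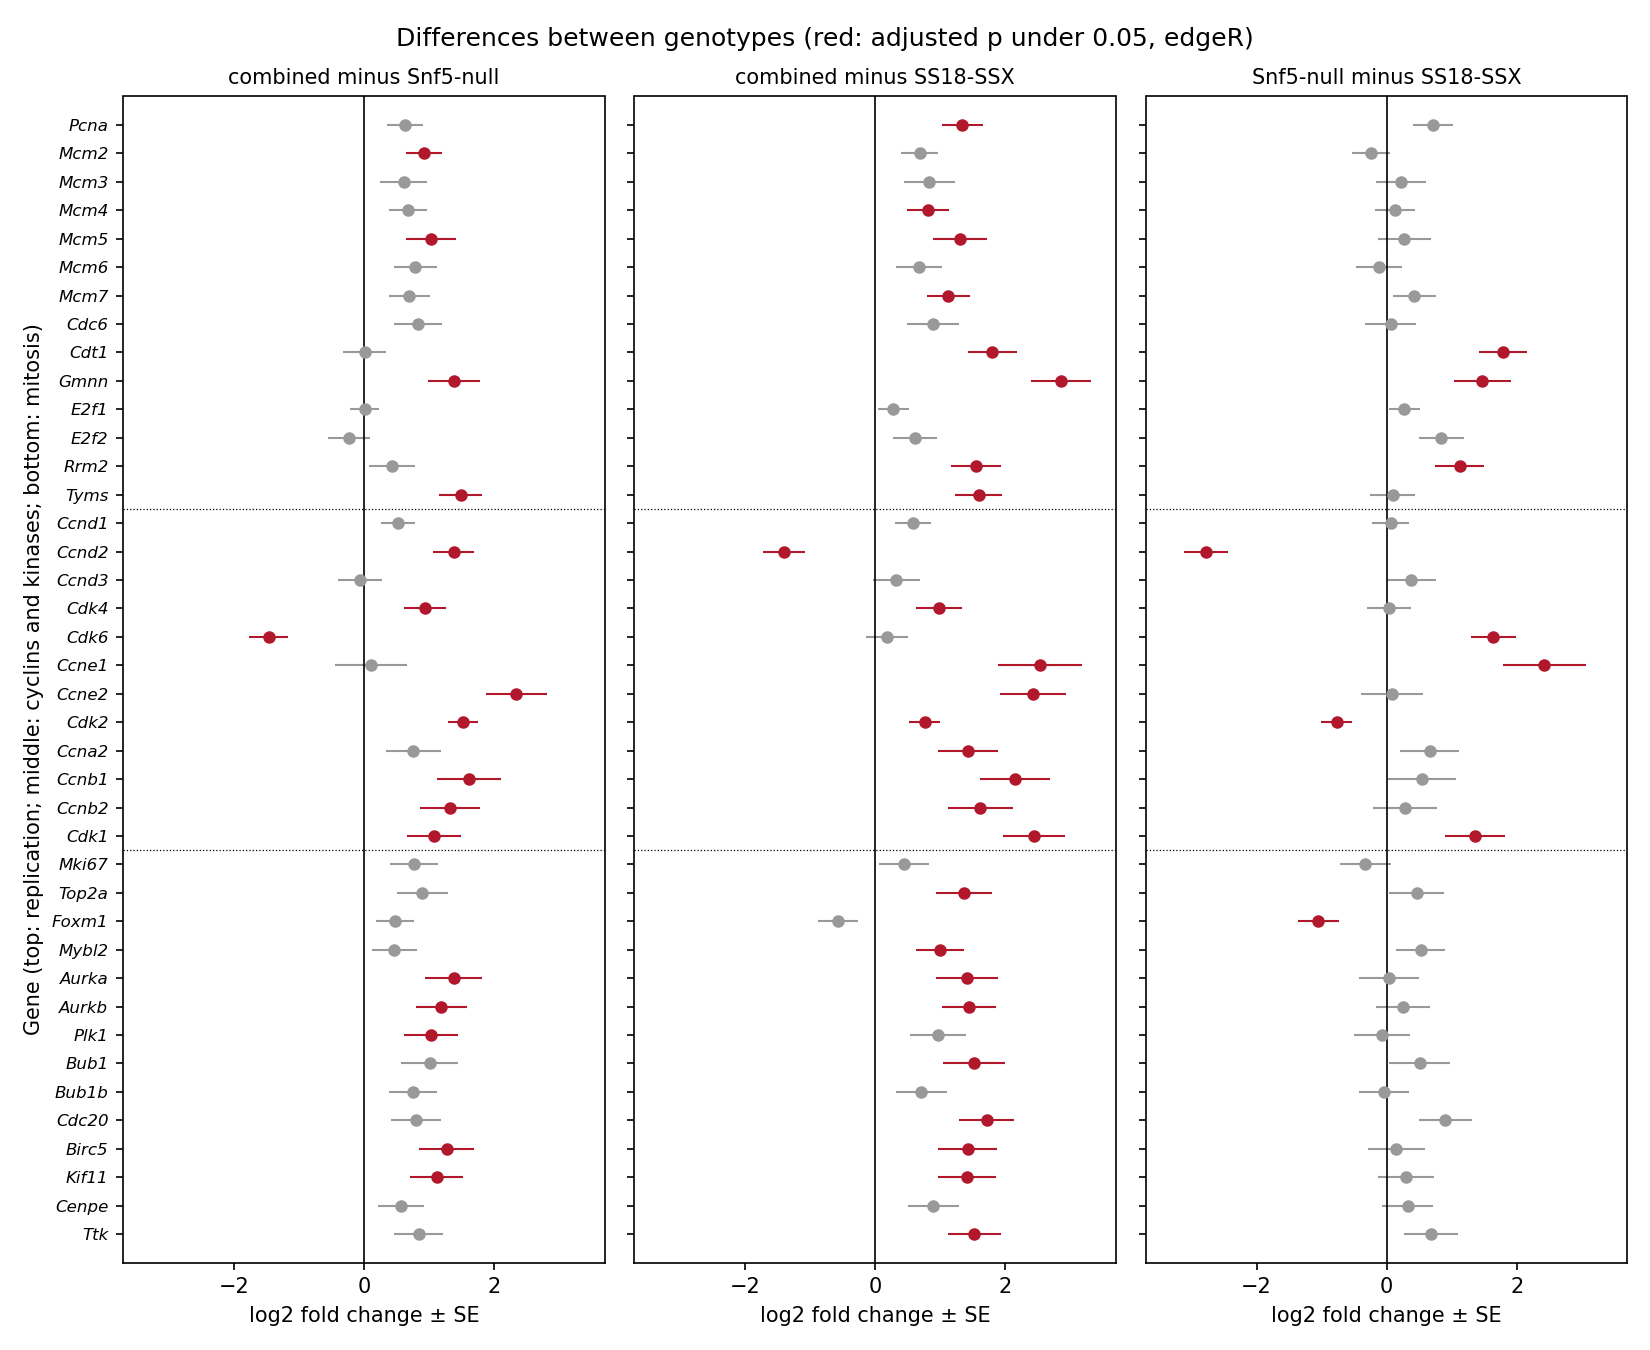
Log2 fold change with its SE for each of the 40 genes in the 3 genotype comparisons, with the genes ordered by class. Red points had an adjusted p under 0.05 in edgeR's quasi-likelihood test, and grey points did not. The combined tumours are to the right of 0 for most genes against either other genotype, while in Snf5-null against SS18-SSX tumours 32 of 40 genes are above 0, with Ccnd2 farthest to the left.

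The 7 CDK inhibitors are not among the 40 and were measured beside them. Of them 4 rose and 2 fell in combined over Snf5-null tumours (57.1% and 28.6%, against 29.1% and 20.5% of all genes). Over SS18-SSX tumours 3 rose and 0 fell (42.9% and 0%, against 23.1% and 21.9%). In Snf5-null against SS18-SSX tumours 2 rose and 2 fell (28.6% each way, near the 22.3% and 25.9% of all genes). Cdkn1c (p57) was at 68.9, 70 and 163 CPM in SS18-SSX Myf5Cre and 83.1, 97.2 and 63.1 CPM in the other SS18-SSX libraries. In Snf5-null tumours it was at 25.3, 3.8, 5.23, 6.5 and 3.32 CPM with TATCre and 6.04, 4.43 and 4.5 CPM with Myf5Cre. In combined tumours it was at 3.73, 8.02, 14.8 and 197 CPM with TATCre and 266, 186, 367 and 294 CPM with Myf5Cre. Of the combined TATCre libraries only 78780 was thus near the Myf5Cre level. Cdkn1c rose in combined over Snf5-null tumours (4.23, SE 0.74, adjusted p = 0.000177) and fell in Snf5-null against SS18-SSX tumours (-3.77, SE 0.74, adjusted p = 0.000442). The Cre difference in combined tumours was 2.32 (SE 0.90, adjusted p = 0.18), and 5.02 (adjusted p = 0.00299) without 78780.

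Cdkn1a (p21, a target of p53) had medians of 31.9, 107 and 44.3 CPM in SS18-SSX, Snf5-null and combined tumours. It ran from 89.7 to 117 CPM in Snf5-null and from 15.5 to 48.7 CPM in SS18-SSX tumours. It rose in Snf5-null over SS18-SSX tumours (1.73, SE 0.31, adjusted p = 0.000221), and fell in combined against Snf5-null tumours (-0.84, SE 0.28, adjusted p = 0.0183), where with TATCre alone it did not pass (-0.11, adjusted p = 0.834). Cdkn1b (p27) rose in combined over Snf5-null tumours (0.86, SE 0.22, adjusted p = 0.00413), at medians of 182 and 112 CPM. Cdkn2c (p18) and Cdkn2d (p19) also rose there (0.94 and 0.79), and both rose over SS18-SSX tumours (1.15 and 0.72).

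Cdkn2a and Cdkn2b, neighbours that encode p16, Arf and p15, differed by Cre label in combined tumours. Cdkn2a was at 27.4, 115, 28.9 and 133 CPM with TATCre and 7.54, 7.76, 9.78 and 10.2 CPM with Myf5Cre. Cdkn2b was at 10.5, 20.9, 9.06 and 21.8 CPM against 2.46, 3.37, 4.66 and 4.18 CPM. The macrophage sum was also lower with Myf5Cre (507 to 1109 CPM with TATCre and 118 to 355 CPM with Myf5Cre). So was the lymphocyte sum (39.8 to 89.9 and 6.3 to 15.8 CPM), and the part of these cells in the result was not tested. Of the macrophage markers 1 of 16 fell (against 1.25% of all genes), and 13 at an unadjusted p under 0.05 in edgeR (against 2280 of the 18929 genes tested). Myf5Cre was lower than TATCre by a log2 fold change of -3.11 (SE 0.60, adjusted p = 0.0142) for Cdkn2a and -2.08 (SE 0.41, adjusted p = 0.0168) for Cdkn2b, and the interaction with genotype passed for both (-4.15, SE 0.80, adjusted p = 0.0128, and -2.41, SE 0.57, adjusted p = 0.0308). These calls were near the threshold: leaving out 1 combined Myf5Cre library (N2, N3 or N4 for Cdkn2a, and N1, N2 or N4 for Cdkn2b) raised the adjusted p of the Cre difference to 0.0509 to 0.0603. The interaction was lost without N31 for Cdkn2a (adjusted p = 0.0508), and for Cdkn2b without N51, N30, N31, N33 or the combined Myf5Cre N1, N2 or N4 (0.0512 to 0.0943).

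**Figure D5:**
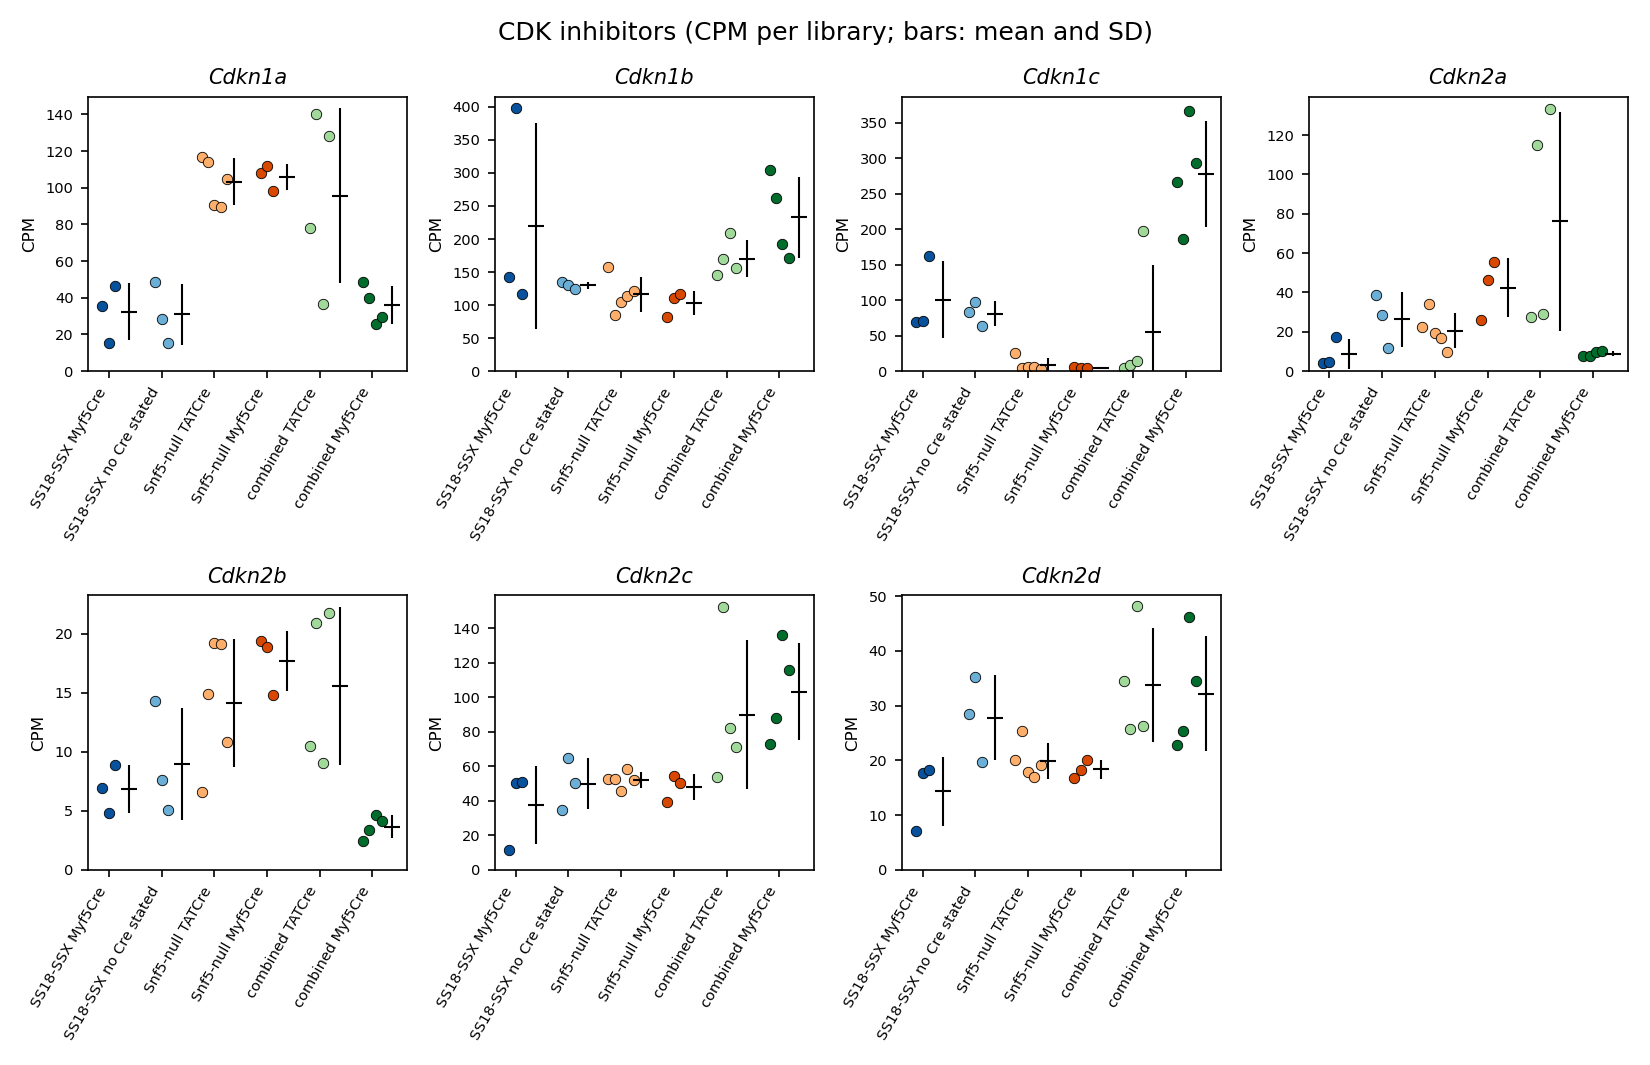
Level in CPM (linear axes from 0) of the 7 CDK inhibitor genes in every library, 1 column per group; points are libraries, and bars are the mean and SD, cut at 0. Cdkn1a has its highest means in the Snf5-null groups, Cdkn1c is low there and high in combined Myf5Cre, Cdkn2b is lowest in combined Myf5Cre, and Cdkn2a is low in both combined and SS18-SSX Myf5Cre.

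Other genes of the pathway were taken from lists chosen by function. Of 28 further replication genes 19 rose and 0 fell in combined over Snf5-null tumours, 22 and 0 over SS18-SSX tumours, and 5 rose and 1 fell in Snf5-null against SS18-SSX tumours. The shares that rose were 67.9%, 78.6% and 17.9%, against 29.1%, 23.1% and 22.3% of all genes, so the last lay under the background. Their median log2 fold changes were 1.01, 1.35 and 0.34. Cdc7, the kinase that fires origins, ran from 5.84 through 11.6 to 21.6 CPM in Snf5-null and from 23.6 through 43.5 to 63.3 CPM in combined tumours (1.74, SE 0.27, adjusted p = 5.34e-05). Its libraries did not overlap, which 2.97% of all genes did in this direction. Prim1, a subunit of primase (1.64, SE 0.36, adjusted p = 0.00126), and Tipin, of the fork protection complex (1.43, SE 0.32, adjusted p = 0.00132), followed. Over SS18-SSX tumours Rfc4 (2.36, SE 0.40, adjusted p = 0.000186), Gins1 and Tk1 (both 2.25) led.

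Of 31 further mitosis genes 11 rose and 0 fell in combined over Snf5-null tumours, 19 and 0 over SS18-SSX tumours, and 3 and 0 in Snf5-null over SS18-SSX tumours, with medians of 0.75, 1.03 and 0.30. The shares that rose were 35.5%, 61.3% and 9.68%, the first near the 29.1% of all genes and the last under their 22.3%. Cenpa, the centromeric histone, had medians of 34.5 and 105 CPM in Snf5-null and combined tumours (1.64, SE 0.35, adjusted p = 0.00104), ahead of Mad2l1 (1.34) and Melk (1.26). Over SS18-SSX tumours Spc24 (2.06), Cenpa (2.04) and Ndc80 (1.97) led, and in Snf5-null over SS18-SSX tumours Spc24 (1.82), Anln (1.31) and Ndc80 (1.19).

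Among 16 genes of the retinoblastoma, E2F and MuvB complexes 6 rose and 1 fell in combined over Snf5-null tumours, the latter Rb1 itself (-1.26, SE 0.33, adjusted p = 0.004), which had medians of 65.7 and 31.5 CPM. E2f7, an E2F repressor, and Tfdp1, the partner of the E2Fs, rose as well, E2f7 by 1.10. Over SS18-SSX tumours 6 rose and 1 fell, led by Rbbp4 (1.66), E2f6 (1.56) and Tfdp1 (0.87), and in Snf5-null against SS18-SSX tumours 3 rose and 2 fell, led by Rb1 (0.99), Rbbp4 (0.94) and Tfdp2 (-0.84). The shares that rose, 37.5%, 37.5% and 18.8%, were near those of all genes in the first and last comparison. Among 15 genes that activate the Cdks or check them 9 rose and 1 fell, 10 and 0, and 4 and 0 in the 3 comparisons. The shares that rose were 60%, 66.7% and 26.7%, against 29.1%, 23.1% and 22.3% of all genes, so the last was near that of all genes. Cdc25c (1.82) and Ccnf (1.07) and the ubiquitin ligase subunit Skp2 (1.47) led in combined over Snf5-null tumours. The Cdk subunits Cks2 (2.23) and Cks1b (1.88) and the Cdk-activating subunit Mnat1 (1.76) led over SS18-SSX tumours, and the same 3 led in Snf5-null over SS18-SSX tumours (1.42, 1.08 and 1.01).

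Genes with close copies elsewhere in the genome were set aside as a check. Of the 40, 8 had at least 5% of their 50-base stretches in another gene (Pcna, Mcm7, Rrm2, Tyms, Ccnb1, Mybl2, Plk1 and Cdc20). Among the other 32 the counts were 13 higher and 1 lower in combined over Snf5-null tumours, 18 and 1 over SS18-SSX tumours, and 5 and 3 in Snf5-null against SS18-SSX tumours. Of all genes tested, 29.1% were higher and 20.5% lower in the first, 23.1% and 21.9% in the second, and 22.3% and 25.9% in the last. The copy nearest to Pcna, Pcna-ps2, had a median of 4.11 CPM and reached 24.6 CPM. That of Ccnb1, Ccnb1-ps, had a median of 0.06 CPM and reached 0.701 CPM. These values depend on how reads with several matches were treated, which is not stated.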

How the data were processed

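Per the labels' protocols, total RNA came from an RNeasy Mini extraction and sequencing libraries from the TruSeq Stranded mRNA kit. Per the submitters' processing notes the tools were cutadapt, STAR 2.7.5a, featureCounts, RSEM and DESeq2 with the mm10 genome. The strand setting of the counting and its treatment of reads with several matches are not stated in those notes or labels. The values deposited are raw counts, whole numbers with no scaling by the authors, for 48440 Ensembl IDs and 22 libraries. Of these, 48058 matched GENCODE M21 (GRCm38).

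The analysis used edgeR 4.0.16 under R 4.3.3: filterByExpr (minimum count 10, minimum total 15) kept 18929 genes with 99.91% of counts, TMM scaling, and 1 quasi-likelihood model of 6 groups. Genotype comparisons weight the 2 groups of a genotype equally. Genes were called at a Benjamini-Hochberg adjusted p under 0.05 over all genes tested, and every adjusted p without another tool's name is from this test. Named genes were the D-type and E-type cyclins with their kinases, Mki67, the 3 largest changes per class and genotype comparison, called genes (up to 6) or the 2 lowest p in the other comparisons, the CDK inhibitors, and the 3 largest called changes of each pathway list. The members, lists and comparisons were chosen with earlier results of these data known. DESeq2 1.42.0, other scalings and filters, left-out libraries and single Cre labels were tried. N43L and N43R were the most alike pair of their group (r = 0.9821 over all genes, others up to 0.9638), and whether they came from 1 animal is not stated. Their counts differed by more than sampling noise (chi-square per degree of freedom 52, where noise alone gives about 1), so they were not treated as copies of 1 library. That value does not show separate animals, and it was the lowest of their group, whose other pairs gave 113 to 360. The main fit counted them as 2 samples, and their sum as 1 sample was an alternative.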

Additional observations from a re-analysis of the deposited data

Results flagged for a closer look

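In the Snf5-null TATCre group, library N1 stood far above the other 4 for 2 of the 40 genes. N1 was also the least like its group over all genes. The Pearson r of log2 CPM was 0.8816 to 0.8922 for pairs with N1 and 0.9513 to 0.9821 for pairs without it. Gmnn was at 5.0 log2 CPM in N1, and 2.97 to 3.47 in the others. E2f2 was at 5.50 log2 CPM in N1, and 3.38 to 3.93 in the others. Among 120 sets of 1 gene in 1 group these 2 stood apart, where chance gives about 5% of sets.

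Between the genotypes the effect of the Cre label differed for 2 CDK inhibitors. The Cre difference in combined tumours minus that in Snf5-null tumours was -4.15 for Cdkn2a and -2.41 for Cdkn2b in edgeR's quasi-likelihood test of the interaction.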

How the results depend on the processing

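No paired analysis was possible because any pair of the 6 groups shares at most 1 tag. The Snf5-null TATCre group shares the tag N49 with the combined TATCre group and the tag N1 with the combined Myf5Cre group. The labels do not tie these tags to 1 animal or batch, and replicate numbers given in sample order pair nothing. Of the 40 genes 16 rose in combined over Snf5-null tumours, but 4 rose with Myf5Cre alone, 28 with TATCre alone and 29 without N381, A and the combined N49. Leaving out 1 library gave 4 (without N30) to 27 (without the combined N49), with 26 without the Snf5-null N1, 5 without N31, 9 without N33, 10 without the combined N3 and 7 without N4. The 1 lower gene became 0 with TATCre alone and stayed at 1 without any single library. Against SS18-SSX tumours the 25 higher became 14 with Myf5Cre alone and 21 to 31 without 1 library, and the 1 lower became 2 with library size alone, without those 3 libraries or without N381 (1 to 2). For Snf5-null against SS18-SSX tumours leaving out 1 library gave 6 to 13 higher and 1 to 3 lower, and Myf5Cre alone gave 1 lower. For Cre within Snf5-null tumours the 3 higher became 1 with N43L and N43R summed, 7 in a fit of Snf5-null and combined libraries alone, 8 in DESeq2, and 0 to 14 without 1 library. The 0 lower there became 1 in DESeq2, and 0 to 1 without 1 library. Within combined tumours the 0 lower became 1 in DESeq2. For the interaction the 0 lower became 2 without the 3 libraries, 1 in the fit of Snf5-null and combined libraries alone, 2 in DESeq2 and 0 to 4 without 1 library. Between the SS18-SSX groups leaving out 1 library gave 0 to 1 lower. The cause of these moves was not tested.

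Among others, values changed sign with 1 Cre label alone for Cdkn2a in combined against Snf5-null tumours (-0.19, and 1.89 with TATCre), Cdkn2b there (-1.07, and 0.14 with TATCre) and Foxm1 in Snf5-null against SS18-SSX tumours (-1.05, and 0.10 with Myf5Cre). In combined against Snf5-null tumours Mybl2, called with TATCre (1.52), was at -0.58 with Myf5Cre, and Cenpe (1.37) at -0.23, while the uncalled Ccne1, Ccnd3, E2f2 and Cdt1 were above 0 with TATCre (0.39 to 1.19) and below 0 with Myf5Cre (-0.97 to -0.54). Of the members called, 4 of 17, 13 of 26 and 6 of 9 kept their call under every alternative in the 3 genotype comparisons (combined against Snf5-null, combined against SS18-SSX, Snf5-null against SS18-SSX), the first being Tyms, Ccnd2, Ccne2 and Cdk2. For Cre within Snf5-null tumours 0 of 3 did. Of all genes called in combined against Snf5-null tumours 58.7% were higher, 46.1% with no low-count filter and 48.8% with genotype alone. With library size alone the share went from 51.3% to 37.6% in combined against SS18-SSX tumours, from 46.2% to 33.2% in Snf5-null against SS18-SSX tumours, and from 31.4% to 46.9% for Cre in combined tumours. The alternatives that leave out the 3 low libraries or fit Snf5-null and combined libraries alone were chosen after seeing the data. The low libraries were picked for their levels of the genes described here, so their removal shifts the counts by selection.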
